A study of Mus musculus with 2 samples.

Results

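Heat shock and chaperone genes were examined in DNase-seq of mouse spleen. The 10 genes, Hspa1a, Hspa1b, Hspa8, Hspa5, Hsp90aa1, Hsp90ab1, Hspd1, Hspe1, Hsph1 and Dnajb1, were chosen by name from the 21938 protein-coding genes of the annotation. Their values were not used, but earlier results of these data were known at the time. For each, the peaks that touched the gene body or the 10 kb on either side were taken, and split into promoter peaks, which reach within 1 kb of any annotated start site, and distal peaks. DNase-seq maps chromatin that is accessible to the enzyme DNase I, as peaks of cuts, and footprints are short stretches inside such regions that are cut less than their surroundings. The 2 libraries came from spleen tissue of 2 male B6CASTF1/J mice aged 2 months, 1 library per animal, with no treatment in the labels. This strain is the first-generation cross of C57BL/6J and CAST/EiJ, so each animal carries 1 genome of each parent, and the alleles were not analysed separately here. All animals belong to 1 group, so the data allow no test between conditions, and the spread given is that between the animals.

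Chaperones bind unfolded or newly made proteins and keep them from aggregating. In every cell a constitutive set works during protein synthesis, and an inducible set is switched on by heat and other stress through heat shock factor 1, which binds inverted repeats of the unit GAA and TTC known as heat shock elements. In the endoplasmic reticulum, where B lineage cells of the spleen fold antibody, a separate response acts through the ER stress element.

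Promoter sequences from RefSeq (GRCm38.p6, the same build as the mm10 files) were matched by symbol for 7 of the 10 genes, and covered 250 bases before to 50 bases after the start. Hspa8, Hsp90aa1 and Hsp90ab1 had no entry. The sequences shown next are those that the results return to. All are reference sequence, written 5′ to 3′ on the strand of the gene. The first pair are the 250 bases before the starts of Hspa1a (chr17:34972157-34972406, minus strand) and Hspa1b (chr17:34959239-34959488, minus strand), shown because the genes are near copies of each other, with GAANNTTC, a pair of heat shock units, in capitals.
Hspa1a: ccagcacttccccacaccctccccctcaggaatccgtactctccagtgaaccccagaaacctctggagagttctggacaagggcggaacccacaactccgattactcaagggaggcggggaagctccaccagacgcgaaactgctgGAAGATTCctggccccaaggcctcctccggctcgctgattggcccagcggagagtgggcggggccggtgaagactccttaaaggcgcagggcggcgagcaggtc
Hspa1b: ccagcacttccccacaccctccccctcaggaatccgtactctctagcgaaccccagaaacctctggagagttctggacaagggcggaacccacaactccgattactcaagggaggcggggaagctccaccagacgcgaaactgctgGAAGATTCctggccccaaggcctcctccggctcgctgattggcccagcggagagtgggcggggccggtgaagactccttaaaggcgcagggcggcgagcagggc
Next come the 81 bases around the heat shock element between Hspd1 and Hspe1 (chr1:55088028-55088108, plus strand), with the element in capitals, and the 20 bases at the heat shock element of Hsph1 (chr5:149636287-149636306, minus strand). The 80 bases before the start of Hsph1 (chr5:149636337-149636416, minus strand) have TTCNNGAA, the other arrangement of a pair of units, in capitals.
Hspe1: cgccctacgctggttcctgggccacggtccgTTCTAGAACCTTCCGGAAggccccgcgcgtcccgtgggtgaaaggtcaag
Hsph1 element: tgcagaTTCTGGAAAGTTCt
Hsph1 upstream: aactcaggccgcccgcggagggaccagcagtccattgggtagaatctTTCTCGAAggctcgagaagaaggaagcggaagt
Last are the 130 bases before the start of Hspa5 (chr2:34771960-34772089, plus strand), with the ER stress element in capitals, and the 250 bases before the start of Dnajb1 (chr8:83607925-83608174, plus strand), the gene with the highest promoter peak, with CCAAT and GGGCGG matches on either strand in capitals.
Hspa5: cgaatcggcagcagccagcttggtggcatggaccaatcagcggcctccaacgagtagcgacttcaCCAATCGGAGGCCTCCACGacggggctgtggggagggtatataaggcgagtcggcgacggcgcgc
Dnajb1: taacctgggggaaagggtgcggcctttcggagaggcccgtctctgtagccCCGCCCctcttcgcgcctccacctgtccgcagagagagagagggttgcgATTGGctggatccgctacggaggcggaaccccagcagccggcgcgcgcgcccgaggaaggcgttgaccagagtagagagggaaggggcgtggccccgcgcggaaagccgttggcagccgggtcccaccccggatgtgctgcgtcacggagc

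Each of the 10 promoters was open, that is, carried a peak, in each animal. Over all protein-coding genes this held for 61.4% in animal 1, 62.6% in animal 2 and 59.8% in both (13116 genes). The height of a gene is that of its highest promoter peak, in the deposited signal, and its percentile is its place among those 13116 genes. The median height of the 10 genes was 15.9, against 6.42 over all genes open in both animals. Of the 10, 8 stood above that median and 7 above the 90th percentile of 15.3. Hspd1 and Hspe1, which share 1 peak, count as 2 genes in each of these. The exceptions below the median were Hspa1a and Hspa1b, which are near copies of each other. The part of that shared sequence in their low heights, taken up below, was not tested. In bulk tissue, fewer cells with an open promoter and less cutting per cell cannot be told apart.

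**Figure D1:**
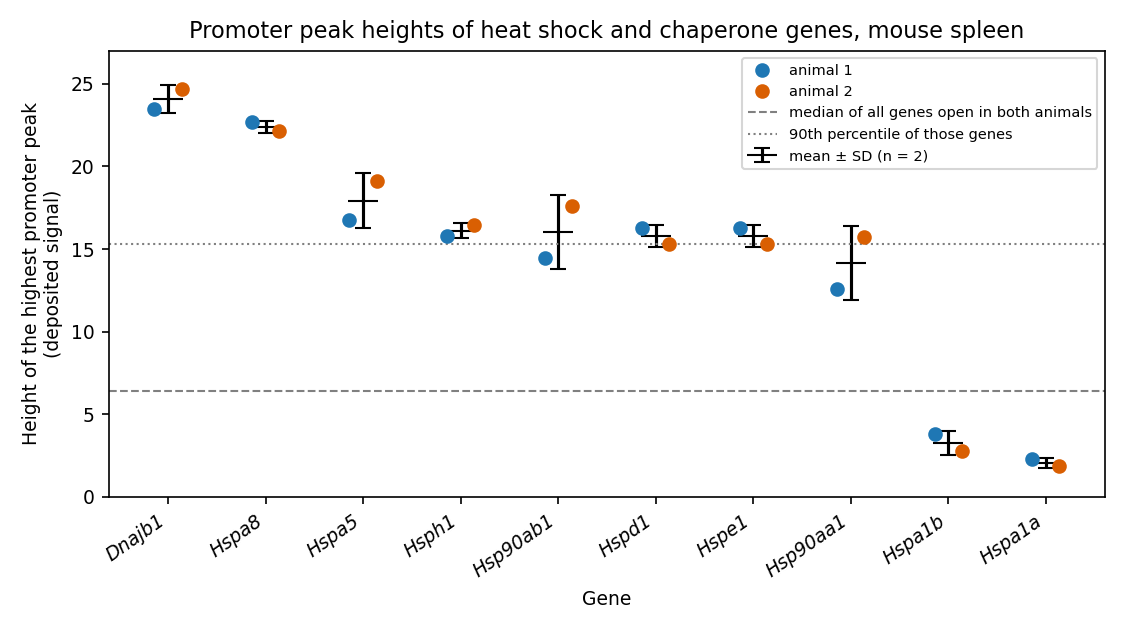
Height of the highest promoter peak (deposited signal, linear axis from 0) of each gene, with 1 point per animal and the mean ± SD (n = 2). Dnajb1 and Hspa8 lie above 22 in both animals, the next 6 genes between 12.6 and 19.1, and Hspa1a and Hspa1b below 4, under the dashed line of the median of all genes open in both animals (6.42).

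Among the HSP70 proteins, ATP-driven chaperones that bind exposed hydrophobic stretches, Hspa8 encodes the constitutive cytosolic form. Its highest peak spanned its start (chr9:40800821-40801240 in animal 1 and chr9:40800801-40801220 in animal 2) and had heights of 22.7 in animal 1 and 22.1 in animal 2 (22.4 ± 0.370, SD, n = 2, percentile 98.9). The animals differed little, and each peak held 7 footprints. The longest in either animal, 49 and 50 bp, ended 10 bp before the start (chr9:40800926-40800974 and chr9:40800925-40800974). A further promoter-class peak of Hspa8 lay in an intron, at 2.17 in animal 1 and 3.61 in animal 2. It also lay within 1 kb of an annotated start of the small nucleolar RNA Snord14e.

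Hspa5 encodes BiP, the HSP70 of the endoplasmic reticulum. Its promoter peak (chr2:34771921-34772100 and chr2:34771801-34772120) reached 16.8 and 19.1 (17.9 ± 1.66, percentile 95.3). It measured 180 bp and 320 bp across, in that order of animals, and held 5 and 8 footprints. Both animals had a footprint just upstream of the first GENCODE start, 32 and 33 bp long (chr2:34771916-34771947 and chr2:34771915-34771947). The ER stress element, CCAAT followed 9 bases on by CCACG, lay at -65 to -47 from the RefSeq start (chr2:34772025-34772043), inside the peak of both animals, and footprints covered 7 of its 19 bases in animal 1 and 10 in animal 2. Among the promoters searched for all genes, 0.16% held that element.

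Hspa1a and Hspa1b encode the stress-inducible HSP70 and lie in tandem on chromosome 17. Hspa1a had heights of 2.27 and 1.86 (2.07 ± 0.290, percentile 21.0). Hspa1b had 3.78 and 2.77 (3.28 ± 0.716, percentile 29.2). The highest Hspa1a peak also lay, in both animals, in the promoter window of Hspa1l, an HSP70 gene on the other strand best known from testis, whose start is 547 bp away, so that height cannot be assigned to either gene. The ranges of the Hspa1a and Hspa1b heights did not overlap, with Hspa1b higher in both animals. The highest Hspa1a peak of animal 1 (chr17:34972321-34972480) was centred at -245 bp from the start, upstream of it, and that of animal 2 (chr17:34972081-34972480), 400 bp wide, at -125 bp. For Hspa1b the highest peak crossed the start in both animals (chr17:34959161-34959400 and chr17:34959161-34959360), and a second peak upstream had heights of 1.83 and 2.02.

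The copies are nearly identical around the start. Their 300-base promoters differed at 4 positions, C44T, T47C, T249G and C276T, with the Hspa1a base first and positions counted from 1 at the 5′ end of the 300 bases, so 98.7% of bases were identical. The last of these lies after the start, outside the stretch printed. Within 1 kb of the start, 46.5% of 36-base words at Hspa1a and 46.8% at Hspa1b occurred once in the genome, against 93.4% to 100% at the other 8 genes. Between -250 and 0 the share was 30.4% for both genes, and between 500 and 1000 bp after the start 0% and 2%. Inside the highest peak the share was 87.2% and 47.1% for Hspa1a in animals 1 and 2, 30.7% and 38.2% for Hspa1b, and 100% for each of the other 8 genes in both animals. With 76-base words, 54.7% around each of Hspa1a and Hspa1b occurred once. The deposited tracks of false discovery rate covered 138 and 137 of the 250 bases after the Hspa1a start and 168 and 143 after the Hspa1b start, but all 250 at the other 8 genes. Before the start, all 250 bases were covered at every gene in both animals. That includes Hspa1a and Hspa1b, where 30.4% of words were unique there. Neither read length nor the handling of reads with several matches is given in the sources used here, and the part of the copies in the low heights was not tested.

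**Figure D2:**
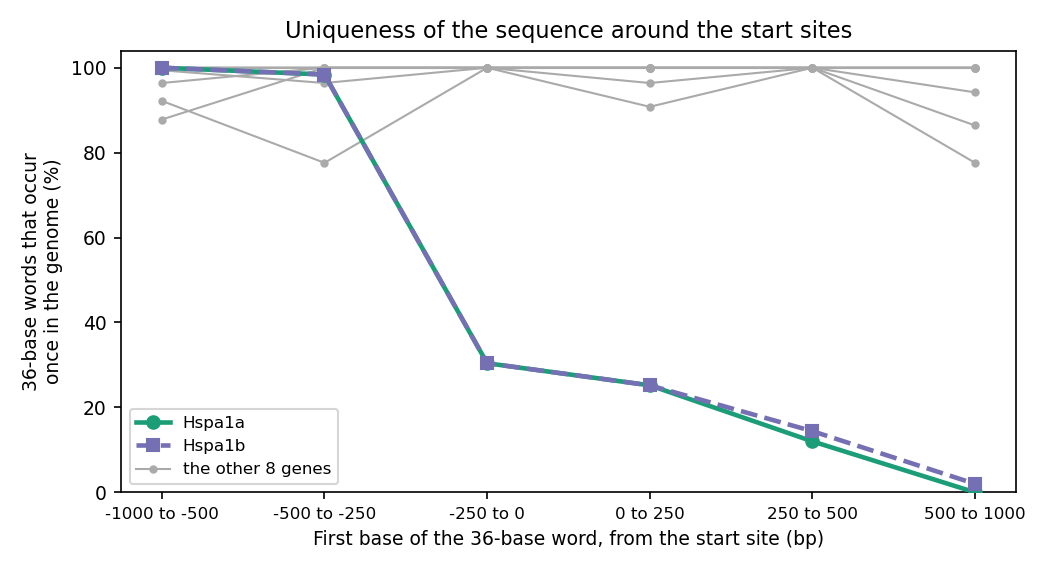
Share of 36-base words that occur once in the genome (%, y axis) in bins of distance from the start site (bp, x axis), with 1 line per gene. Hspa1a and Hspa1b fall to 30.4% between -250 and 0 and stay low downstream, and the other 8 genes, in grey, are at 77.6% or more in every bin.

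Hsph1 encodes an HSP110 protein, which acts as a nucleotide exchange factor of HSP70. Its highest peak (chr5:149636241-149636480 and chr5:149636301-149636480) had heights of 15.8 and 16.4 (16.1 ± 0.445, percentile 92.1). A separate upstream promoter peak, centred at -370 and -380 bp, reached 11.5 and 13.7, so the gene had a pair of high peaks in each animal. It had no distal peak in either animal.

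Dnajb1 encodes a J-domain protein that delivers substrates to HSP70 and stimulates its ATPase. Its promoter peak was the highest of the 10 genes, at 23.5 and 24.7 (24.1 ± 0.824, percentile 99.3), on chr8:83608081-83608260 in animal 1 and chr8:83607921-83608260 in animal 2. The call of animal 1 spanned 180 bp and held 2 footprints, whereas that of animal 2 spanned 340 bp and held 6. The same peak lay in the promoter window of Tecr, a gene of very long chain fatty acid synthesis on the other strand, whose start is 222 bp away, so the height cannot be assigned to either gene.

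The cytosolic HSP90 proteins, which mature kinases and steroid receptors, are encoded by the inducible Hsp90aa1 and the constitutive Hsp90ab1. Hsp90aa1 had heights of 12.6 and 15.8 (14.2 ± 2.25, percentile 87.1), on chr12:110696301-110696600 and chr12:110696341-110696620. That peak lies at an internal start, and with the most 5′ annotated start alone the mean height was 4.85, from a peak of 3.88 and 5.83. Hsp90ab1 had heights of 14.4 and 17.6 (16.0 ± 2.23, percentile 91.9), on chr17:45573221-45573440 and chr17:45573241-45573440. A second promoter peak of Hsp90ab1, centred at -630 bp, had heights of 9.08 and 8.16. Both HSP90 genes were higher in animal 2, by log2 ratios of 0.33 for Hsp90aa1 and 0.28 for Hsp90ab1. The median over all genes open in both animals was similar, at 0.27.

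Hspd1 and Hspe1 encode HSP60 and HSP10, the chaperonin and its lid in the mitochondrial matrix. They lie on opposite strands with their nearest annotated starts 71 bp apart, and share 1 promoter peak (chr1:55087941-55088280 and chr1:55087941-55088300). It had heights of 16.3 and 15.3 (15.8 ± 0.657, percentile 91.4) and held 7 and 8 footprints. The 2 genes therefore add 1 measurement, not 2.

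In the order of mean height, Dnajb1, Hspa8 and Hspa5 came first and the animals' ranges of neighbours did not overlap down to Hsph1. Hsph1, Hsp90ab1 and the Hspd1 and Hspe1 peak overlapped in range, as did that peak and Hsp90aa1. Hspa1b and Hspa1a came last, each apart from its neighbours.

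**Figure D3:**
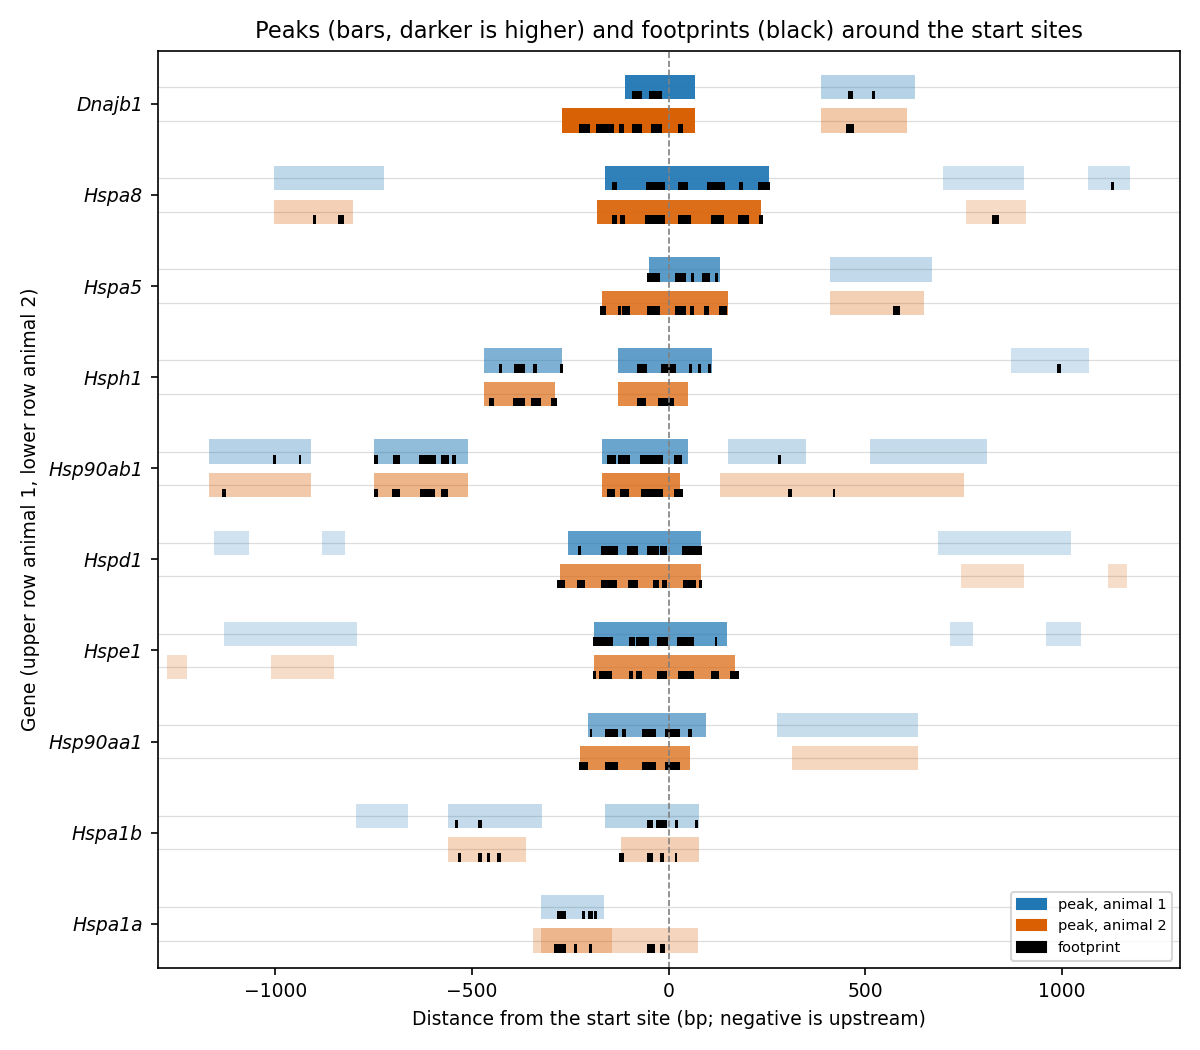
Peaks (bars, darker with height) and footprints (black) by distance from the start site nearest the highest promoter peak (bp, negative upstream), with animal 1 above animal 2 for each gene. The highest peak covers the start at every gene except Hspa1a in animal 1, where it lies upstream, centred at -245 bp.

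The search for sequence motifs covered both strands of the 300-base promoters of the 7 genes and of 17492 promoters in all. Counts use the first RefSeq entry of each gene, for the 7 and for all genes alike. Hspa1a and Hspa1b, near copies of each other, count as 2 genes throughout, so a match in their shared sequence is counted for each. The 3-unit heat shock element, GAANNTTC and TTCNNGAA overlapping by 3 bases, matched at Hspe1 and Hsph1, 2 of the 7, against 0.463% of all promoters. At Hspe1 it matched on both strands, over 18 bases at -89 to -72 (chr1:55088059-55088076), between the start sites of Hspd1 and Hspe1 nearest the peak, and it also lies in the second RefSeq entry of Hspd1, which is not in the counts. Footprints covered both 13-base matches fully in animal 1, and 5 bases of one and 0 of the other in animal 2. The footprint there began at the same base in both animals and was 32 bp long in animal 1 and 15 bp in animal 2 (chr1:55088049-55088080 and chr1:55088049-55088063). At Hsph1 the element lay after the start, at 36 to 48 (chr5:149636288-149636300), with 7 bases in footprints in animal 1 and 0 in animal 2, where it was also outside the peak. The 2-unit match TTCNNGAA of Hsph1 at -33 to -26 (chr5:149636362-149636369) was fully inside footprints in both animals.

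GAANNTTC matched at 4 of the 7, Hspa1a, Hspa1b, Hspe1 and Hsph1, against 7.33% of all promoters. At Hspa1a and Hspa1b the match at -104 to -97 had 0 bases in footprints in both animals. TTCNNGAA matched at 2 of the 7 (Hspe1 and Hsph1), against 7.53%. Both pairs also matched in the second entry of Hspd1, within the element shared with Hspe1. These pairs are parts of the 3-unit element where that is present, so the counts overlap.

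The GC box GGGCGG, the site of SP1-type factors, matched at all 7 genes, against 46.3% of all promoters, and CCAAT, the site of NF-Y, at 6 of 7, against 39%. The E box CACGTG matched at 2 (Hspd1 and Hsph1; 7.9% of all) and the ETS site CCGGAAG at 1 (Hspe1; 11.9%), and again in the second entry of Hspd1. TATAAA matched at 0 of 7 (13.3% of all) and the cAMP response element TGACGTCA at 0 of 7 (2.34%). Footprints touched 10 of 15 GC box matches in animal 1 and 10 in animal 2, with 9 touched in both. Of 11 CCAAT matches they touched 3 in animal 1 and 5 in animal 2, with 3 in both. The share touched was not taken over the matches of all promoters. These counts therefore set neither the 7 genes nor either motif apart. The GC boxes of Hspa1a and Hspa1b at -49 to -44 were fully inside footprints in both animals. They lie in the sequence that the copies share, and that of Hspa1a was outside the peaks of animal 1. The CCAAT match of Hspa5 at -98 to -94 was covered fully in both animals too. A match describes letters only and is not evidence that a factor was bound. Median GC content of the 7 promoters was 61.3%, against 56.3% of all, and the median ratio of observed to expected CpG was 0.901, against 0.576.

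**Figure D4:**
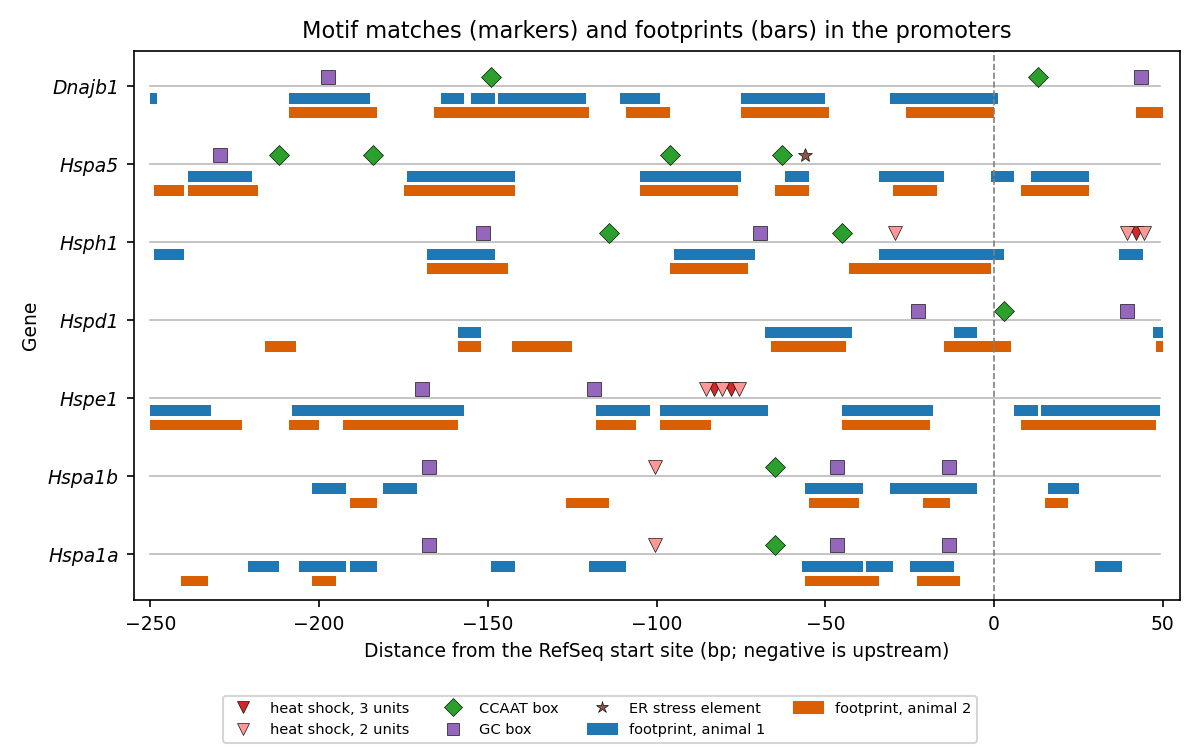
Motif matches (markers) and all deposited footprints (bars, 1 row per animal) by distance from the RefSeq start (bp, negative upstream) in the 7 promoters, using the first RefSeq entry of each gene. The 3-unit heat shock element stands at -89 to -72 at Hspe1, under a footprint in animal 1, and after the start at Hsph1.

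Footprints were found in the highest promoter peak of all 10 genes in both animals, against 97.5% and 98.4% of all genes open in both. Their number there ranged from 2 to 7 in animal 1 and from 2 to 8 in animal 2, with medians of 5 and 5.5, against 4 and 4 over all genes. Promoter peaks of the 10 genes held 71 footprints in animal 1 and 75 in animal 2. Of these, 73.2% and 78.7% overlapped a footprint of the other animal, against 69.2% and 64.9% over the promoter peaks of all protein-coding genes. The median width of the highest peaks was 240 and 330 bp, against 220 and 200 bp over all genes, and the part of width in the footprint counts was not tested. Hspd1 and Hspe1, with 1 shared peak, count as 2 genes in the medians of footprints and of width. Over the 300-base promoters, footprints covered 186 bases in animal 1 and 163 in animal 2 at Hspe1, and 180 and 164 in the overlapping second entry of Hspd1. Dnajb1 had 135 and 145 bases, and Hspa5 131 and 135. Hspa1a had 96 and 50 bases and Hspa1b 72 and 51, in the sequence that the copies share.

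The log2 ratio of height, animal 2 over animal 1, had a median of 0.01 over the 10 genes, between -0.45 for Hspa1b and 0.33 for Hsp90aa1. Over all genes open in both it was 0.27 (SD 0.29 over genes), so heights were shifted between the libraries as a whole. Of the 10 genes, 5 were higher in each animal, and 8 lay below the median ratio of all genes. Hspd1 and Hspe1, with 1 shared peak, count as 2 genes among those higher in animal 1 and those below the median. None differed by more than 2-fold, which 0.801% of all genes did. The genes are not replicates, and with 1 library per animal the library and the animal cannot be told apart.

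**Figure D5:**
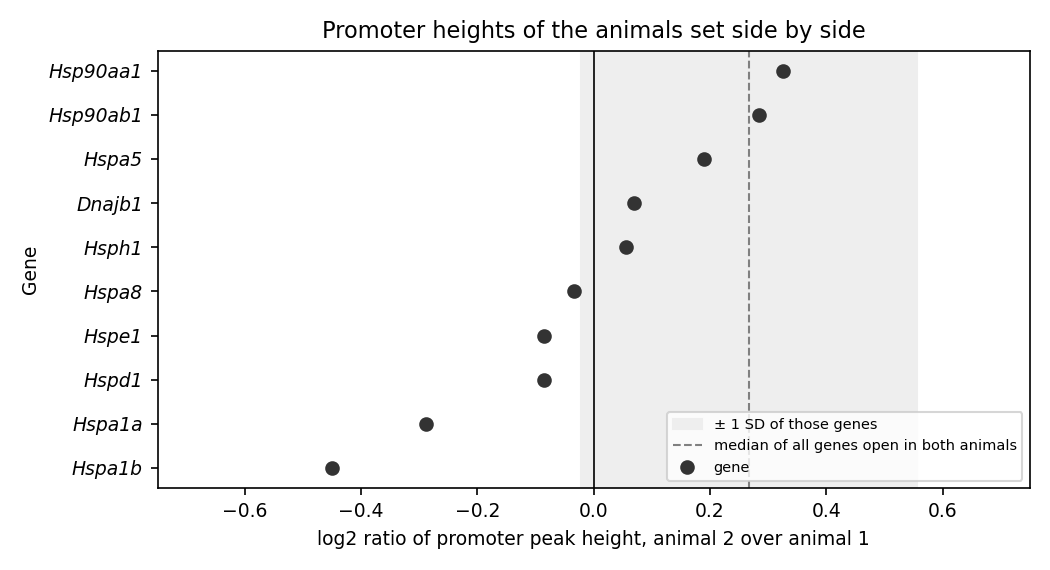
Log2 ratio of promoter peak height, animal 2 over animal 1, for each gene, with the median (dashed, 0.27) and SD (grey) of all genes open in both animals. Hspa1b (-0.45) and Hspa1a (-0.29) lie lowest and Hsp90aa1 (0.33) highest.

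In all, 45 different peaks lay at the 10 genes in animal 1 and 42 in animal 2, of which 28 and 23 were promoter peaks of at least 1 of them. Of all, 84.4% and 90.5% overlapped a peak of the other animal, against 76.5% and 79% of all peaks. The peaks that did not were low, at most 0.573 in animal 1 and 0.618 in animal 2.

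Of 17 peaks in animal 1 and 19 in animal 2 that were distal to every gene, 7 in each lay in the promoter of another gene. The highest, next to Hspa1a, was in the promoter of Lsm2, which encodes a protein of the U6 snRNP, and of the predicted gene Gm10501, at 6.61 and 7.85. At Hsp90ab1, with 9 and 8 distal peaks, the highest was in the promoter of Slc35b2, a transporter of the sulfate donor PAPS, at 6.35 and 6.50. Other peaks near it lay in introns and an exon of Nfkbie, an inhibitor of NF-kB, the highest at 1.98 and 2.17. Of Hsp90ab1's own upstream side, peaks at -8410 bp had heights of 2.04 and 2.16.

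The highest distal peak in no promoter lay 14308 bp after the start of Dnajb1 (chr8:83622421-83622580), in intergenic sequence, at 3.61 in animal 1 and 6.27 in animal 2. That of Hspa5 lay in an intron of Rabepk, at 1.72 and 1.81. Near Hspa1b a peak in the promoters of 1110038B12Rik and Gm25744 had heights of 2.54 and 2.99. Position alone does not link a distal peak to a gene.

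Other genes of protein folding were taken from a list of 81 symbols, of which 80 matched a protein-coding gene. One of them, Hspa1l, has the same highest promoter peak as Hspa1a. Of these 80, 73 (91.2%) were open in both animals, against the 59.8% of all protein-coding genes. Their median height was 10.7, 56 stood above the median of all genes and 18 above the 90th percentile. The symbol without a match was Cct6a, so it is not among the 8 genes examined of the cytosolic chaperonin CCT. The lowest of the 8 was Cct6b, whose peak is also in the promoter of Zfp830. All 8 were open in both animals, with heights from 7.06 to 16.7. So were all 12 genes grouped as ER folding and stress response, from 7.66 to 22.7, and all 9 HSP90 cochaperones, from 6.21 to 21.8. The ER group does not hold every listed gene of the ER. It leaves out the collagen chaperone Serpinh1, at a mean of 0.681, and the BiP cochaperone Dnajc3, named below among the highest. Among 9 small heat shock proteins, which hold unfolded proteins without ATP, 4 were open in both animals and 3 in neither.

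The 5 highest of the list, by mean ± SD (n = 2), were Dnajb4 (24.5 ± 0.444), whose peak is also in the promoter of Fubp1, Ddit3 (22.7 ± 4.01), which encodes the ER stress factor CHOP, Stip1 (21.8 ± 5.01), which encodes the HOP cochaperone that bridges HSP70 and HSP90, Hspa2 (20.2 ± 3.90), an HSP70 best known from testis, and Dnajc3 (18.1 and 22 in the animals, SD 2.76), an ER cochaperone of BiP. The 5 lowest open in both were Bag2 (0.970 ± 0.338), Hspb1 (0.813 ± 0.0357), Serpinh1 (0.681 ± 0.0925), the collagen chaperone, Hspa12b (0.479 ± 0.130) and Hspb8 (0.408 ± 0.0302). Cryab and Hspb2, neighbours that share a peak, were open in animal 1 only, at 0.473. Cryaa, the lens crystallin, Dnajb13, Hsf5, Hspb3 and Hspb7 had no promoter peak in either animal.

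The tissue label was checked with markers. Promoter peaks in both animals were found at 6 of 6 B cell genes and 4 of 5 T cell genes, against 59.8% of all protein-coding genes. They were also found at 3 of 4 red pulp macrophage genes and 1 of 3 genes of spleen stroma. For other tissues, they were found at 1 of 4 hepatocyte genes (Apob, at 0.446) and 1 of 3 pancreatic acinar genes (Cela1, at 4.64). Mean heights at the B cell genes ran from 4.16 to 12.4. Cd3d and Lck had 5.72 and 5.99. Cd3e (0.884), Cd8a (0.764), Hmox1 (2.68), Vcam1 (0.561), Spic (0.487) and Tlx1 (0.515) were lower. Outside the B cell genes, these counts say little about the label. The T cell gene without a peak was Cd4 and the macrophage gene Adgre1.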

How the data were processed

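DNase-seq peaks, footprints and tracks of false discovery rate were deposited for each library on its own, on mm10, per the deposited file listings. Aligner, callers, thresholds and read length: not given in the sources used here. Peak height is the deposited signal of the longer of the 2 peak lists (79246 and 77231 peaks), and is a whole multiple of 0.00716 in animal 1 and 0.00679 in animal 2. The total depth is not stated, so no counting intervals are given. The deposited tracks hold q-values, and the deposited footprints (211394 and 215907) carry a constant 0.01, taken as a p-value whose meaning is not stated. Start sites came from GENCODE M21. Intervals counted as overlapping from 1 bp, and a footprint belonged to the peak that held its midpoint. Word uniqueness was counted on the primary assembly, both strands together. Samples were grouped by the labels. The calculations, in Python 3.11.15 with numpy 2.4.6 and Biopython 1.88, were tested on simulated data. The 10 genes, the list of other chaperone genes and the markers were chosen with earlier results of these data known. Named genes are all 10, the 5 highest and 5 lowest open in both animals of the list, those open in 1 animal, those in neither, and genes that share peaks. Alternatives were the shorter peak list, the higher 50% of the longer one, 1 animal alone, other windows and flanks, and 1 mismatch in the heat shock element.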

Additional observations from a re-analysis of the deposited data

How the results depend on the processing

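Of 75 alternative values, 67 kept their direction and stayed within the spread or the 1.5-fold margin, and 8 moved. For the log2 ratio the margin was a change of 0.1. Height is that of the highest promoter peak, so several alternatives could hardly change it. The median height was 15.9 with the shorter peak list, the higher 50% and the other windows. With 1 animal alone the median promoter height of the 10 genes lay between 16.0 and 16.1, against 15.9, a shift larger than the spread of that median and small beside the heights. The mean number of distal peaks per animal was 20.5. It was 12.5 with the shorter peak list and 12.5 with the higher 50% of the longer list, which hold fewer peaks. With a flank of 5 kb, shorter than the 10 kb used, it was 8.5, and with a longer flank of 25 kb it was 52.5. With 1 mismatch allowed, the heat shock element matched at 4 promoters (Hspa1a, Hspa1b, Hspe1 and Hsph1) in place of 2, and at 6.47% of all promoters. The mean height of Hsp90aa1 was 4.85 with its most 5′ start alone. No paired analysis was possible because there is 1 group. With 2 animals, no test of a difference could be made, and depth, which is not stated, limits what can be said of a gene without a peak.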
